A study of Mus musculus with 10 samples.

Results

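The colony stimulating factors and their receptors were read as 8 genes, chosen by name from the table of gene counts: the ligand genes Csf1, Csf2 and Csf3 and the receptor chain genes Csf1r, Csf2ra, Csf2rb, Csf2rb2 and Csf3r. They were 8 of 39488 rows in all, or of 29700 rows once circular RNAs were left out. RNA-seq was done on peritoneal macrophages of wild-type C57BL/6 mice aged 8 weeks, collected on day 3 after thioglycollate, an irritant that draws monocyte-derived macrophages into the peritoneum. There were 5 control libraries and 5 ox-LDL libraries. The ox-LDL cells were primed with 100 ng/ml LPS, the bacterial ligand of Toll-like receptor signalling, and then received 100 µg/ml oxidized low-density lipoprotein (ox-LDL) for 16 h. The labels describe the control cells as untreated, although the study's own text can also be read as LPS priming in both groups. By the labels, LPS and ox-LDL differ together between the groups, so their effects cannot be told apart. The replicates are stated to be biological, and no label says which animals or pools they came from.

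M-CSF (encoded by Csf1) signals through the receptor tyrosine kinase encoded by Csf1r and maintains macrophage survival and differentiation. GM-CSF (Csf2) binds a specific alpha chain (Csf2ra) paired with the common beta chain (Csf2rb), which also serves the IL-3 and IL-5 receptors, and the mouse carries an additional beta chain gene, Csf2rb2, whose product works with the IL-3 receptor. G-CSF (Csf3) acts through Csf3r, chiefly on neutrophils and their precursors.

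Levels are given as CPM, counts scaled to a common library size by TMM, a method that corrects library sizes for differences in composition. A gene was called when its adjusted p was below 0.01 in edgeR's quasi-likelihood test, adjusted by Benjamini-Hochberg over the 12654 genes that passed the filter on low counts. Over these genes 9.40% were called higher and 5.35% were called lower in ox-LDL cells, and the median log2 fold change of all genes was 0.10. Of the 8 members, 6 passed the filter, and Csf1 and Csf2rb were called higher. Of the 6, 0 were called lower by edgeR, with 0 at an unadjusted p under 0.05 and 0 called lower by DESeq2 or limma-voom, and all 6 fold changes were above 0 on the log2 scale. The count of members called depended on single libraries. It was 4 of 7 tested without control replicate 5 (8.16% of all genes called higher in that fit) or without ox-LDL replicate 1 (8.95%). In both fits the 4 included Csf3, which passed the filter only through its ox-LDL counts. The count was 4 of 6 without ox-LDL replicate 2 (13.5%). It was 1 of 6 without ox-LDL replicate 3 (7.16%), 4 (7.40%) or 5 (8.09%). With all 10 libraries Csf2 and Csf3 had too few counts to pass the filter and are described by their counts.

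Library totals ranged from 20094647 to 20687289 counts in control and from 19257131 to 20358017 in ox-LDL libraries. In ox-LDL replicate 2 the TMM factor was 0.593, against 0.837 to 1.19 in the other 9 libraries, and the deviation of its genes from the group mean ran most strongly against gene length (Spearman rho across genes, -0.68, against -0.61 to 0.53 elsewhere). Control replicate 5 had the highest control level of several inflammatory genes, Socs3 among them. Several of the results that rest on either library, though not all, are given with and without it. Of the macrophage markers, 10 of 10 were detected. Their summed level was 35776 to 68864 CPM among control libraries and 21752 to 59080 CPM after ox-LDL. The 59080 CPM was ox-LDL replicate 2, with the next ox-LDL library at 30713 CPM. Lyz2 (up to 44725 CPM) and Ctsd (up to 21713 CPM) weighed most in the sum. By edgeR, 2 of the 10 were called higher, Adgre1 (log2 fold change 2.07) and Cd14 (2.24), and 0 lower, with a median of 0.42. The 8 matched T cell, NK and innate lymphoid markers were below 1 CPM in every library, and the B cell sum reached at most 3.52 CPM. The eosinophil and mast cell sum was 2.95 to 13.4 CPM among control libraries and 0.683 to 5.91 CPM after ox-LDL, with Siglecf called lower (log2 fold change -3.32, edgeR adjusted p 3.2e-04). The dendritic cell sum was 1.63 to 3.35 CPM and 2.22 to 5.22 CPM. Of the 2 dendritic markers tested, Clec9a was called higher (2.33, edgeR adjusted p 0.0028) and Zbtb46 was not called (1.24, edgeR adjusted p 0.0578). Another dendritic marker, Cd209a, was not tested and went the other way. It was 0.130 to 1.96 CPM in control and at most 0.0856 CPM in ox-LDL libraries. Both cell types express beta chain genes, and their part in the results was not tested. In these bulk samples fewer cells of a type and less RNA per cell cannot be told apart.

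Csf1 was higher in ox-LDL cells. It lies on the minus strand at chr3:107543966-107563387 (mm9), and its level was 1.88, 0.813, 3.17, 1.75 and 3.08 CPM in control replicates 1 to 5 and 11.6, 6.59, 23.8, 24.4 and 12.0 CPM in ox-LDL replicates 1 to 5. The groups did not overlap, and even the lowest ox-LDL library, replicate 2, lay above every control library. Control libraries averaged 2.14 ± 0.990 CPM and ox-LDL libraries 15.7 ± 7.96 CPM (mean ± SD, n = 5 per group), a ratio of 7.32. The log2 fold change was 2.87 (SE 0.44, 95% interval 1.91 to 3.83) with an adjusted p of 6.37e-04 by edgeR, and Csf1 stayed past the threshold in 24 of 24 alternatives, between 1.55 and 3.20.

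Csf2 counts were 0 in all 5 control libraries and 8, 24, 9, 2 and 17 in ox-LDL replicates 1 to 5. The gene lies on the minus strand at chr11:54060773-54063169 (mm9), where the annotated gene Gm12223 overlaps it on the other strand, and the study does not state whether counting used the strand. Every ox-LDL library had reads, from 0.0957 to 2.06 CPM, and the highest was replicate 2. The ox-LDL mean was 0.791 ± 0.783 CPM (SD, n = 5), at least 5.59-fold higher than the floor set by 3 counts per control library. The exact permutation test over libraries, two-sided over 252 arrangements, gave p = 0.00794, the smallest p that this design allows. Without ox-LDL replicate 2 the mean difference fell from 0.791 to 0.474 CPM. The counts are small, and replicate 4, at 2 counts, lay under that floor.

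Csf3 counts were 1, 0, 1, 0 and 1 in control and 7, 14, 102, 144 and 92 in ox-LDL replicates 1 to 5. The ox-LDL libraries fell into a low pair, replicates 1 and 2 at 0.304 and 1.20 CPM, and a higher trio, replicates 3, 4 and 5 at 4.97, 6.89 and 5.49 CPM. The gene, on the plus strand at chr11:98562577-98564943 (mm9), had an ox-LDL mean of 3.77 ± 2.86 CPM (SD, n = 5), at least 26.7-fold higher than the floor of 3 counts per control library. The groups did not overlap (two-sided exact permutation p = 0.00794). Leaving out any 1 of the 5 control libraries raised the exact p to 0.0556, above 0.05, although the groups still did not overlap. With unequal groups, arrangements that place ox-LDL replicates 3, 4 and 5 in the smaller group give as large a mean difference. That rise in p therefore does not measure overlap. With any 1 control library or ox-LDL replicate 1 left out, Csf3 passed the filter and was called in all 6 fits, with edgeR adjusted p of at most 0.0020. It passed the filter there only through its ox-LDL counts, the group where it is high. Those calls therefore add no support to the difference. Without the filter on low counts, edgeR gave an adjusted p of 5.74e-04 for Csf2 and 2.16e-04 for Csf3. Over the 29267 genes of that fit 4.14% were called higher, and 5 of the 8 members were: Csf1, Csf2, Csf3, Csf2rb and Csf2rb2.

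The 3 ligands and Csf2rb were the members whose groups did not overlap, each with all ox-LDL libraries above all control libraries. Of the 6 members that passed the filter, Csf1 and Csf2rb did so, and of all 12654 genes tested 11.6% did. Stromal and mesothelial cells are another source of these ligands, and their marker sum was 15.9 to 54.3 CPM among control libraries and 108 to 161 CPM after ox-LDL. Of these markers, 3 of the 6 tested were called higher (Col1a1, Col1a2 and Dcn). In every library 4 of 11 stayed below 1 CPM, the mesothelial markers Msln and Upk3b among them. Upk3b was not tested and went the other way, with its highest ox-LDL library (0.239 CPM) under its lowest control library (0.257 CPM). The mesothelial marker Wt1 was tested and not called (log2 fold change 0.75, edgeR adjusted p 0.264). The part of stromal and mesothelial cells in the ligand levels was not tested.

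**Figure D1:**
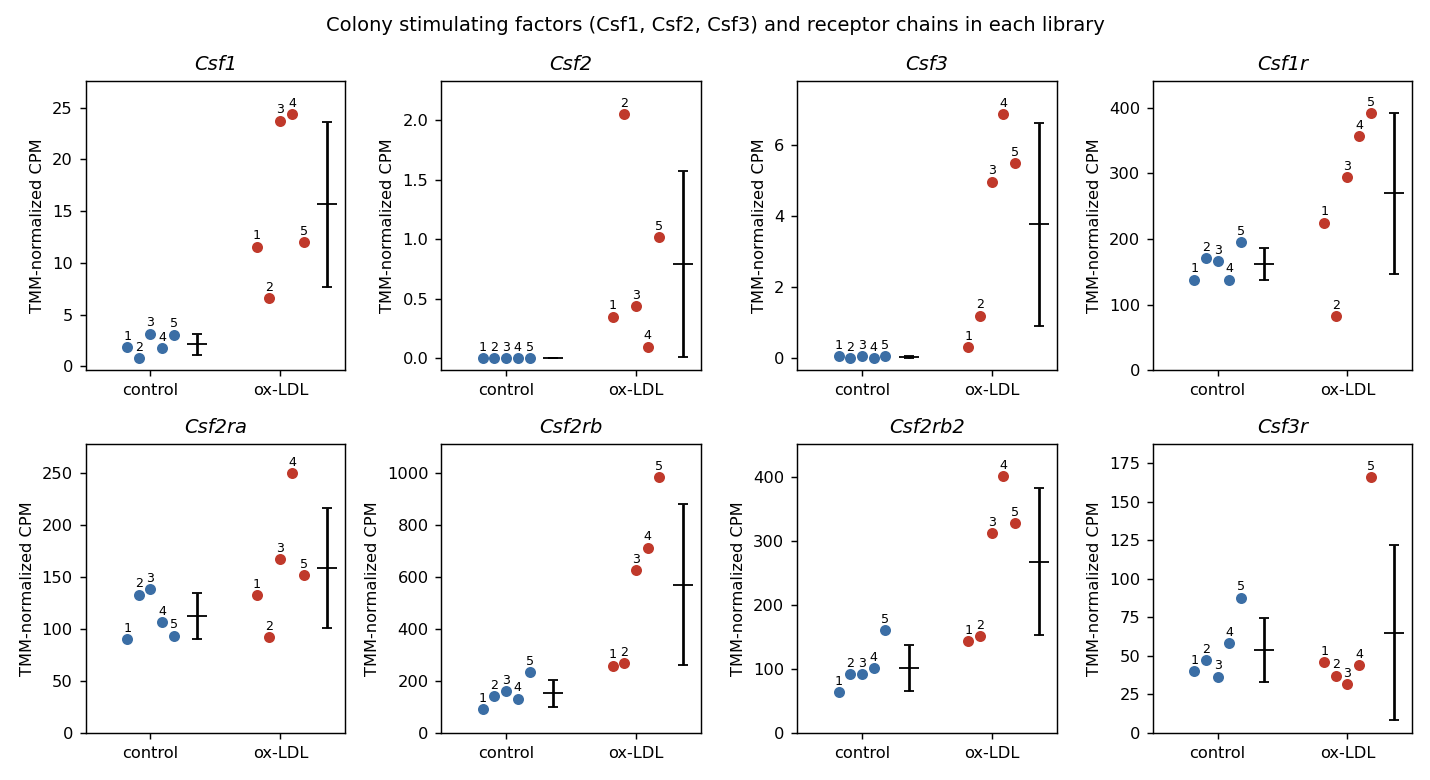
Levels of the 8 genes in each library, as TMM CPM on a linear axis that differs between panels, with control libraries in blue and ox-LDL libraries in red, numbered by replicate, and a black tick and bar for the mean and SD of 5. The ligands Csf1, Csf2 and Csf3 and the chain Csf2rb have ox-LDL points above all control points, while the groups of Csf1r, Csf2ra, Csf2rb2 and Csf3r overlap.

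The bases before the start of transcription are shown for 3 of the 5 members with an entry in the RefSeq promoter table: Csf1 and Csf2, ligands whose groups did not overlap, and Csf2rb2, a beta chain gene. Csf3, Csf1r and Csf2rb were not searched. Each stretch is 250 bases, 5′ to 3′ on the gene's strand, read from the mm9 genome at the GENCODE start, and the capitals mark matches to 5 motifs searched on both strands: GGG and CC with 5 bases of any kind between them for NF-kB, GAGATTCC for the CK-1 element of cytokine promoters, TGANTCA for AP-1, TTNNGNAA for C/EBP and GAGGAA for PU.1.
Csf1, chr3:107563388-107563637 (minus): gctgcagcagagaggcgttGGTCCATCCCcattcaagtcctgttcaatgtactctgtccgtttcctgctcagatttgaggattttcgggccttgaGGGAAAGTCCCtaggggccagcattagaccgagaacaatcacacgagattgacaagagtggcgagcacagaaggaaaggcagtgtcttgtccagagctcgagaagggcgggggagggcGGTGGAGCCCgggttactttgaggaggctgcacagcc
Csf2, chr11:54063170-54063419 (minus): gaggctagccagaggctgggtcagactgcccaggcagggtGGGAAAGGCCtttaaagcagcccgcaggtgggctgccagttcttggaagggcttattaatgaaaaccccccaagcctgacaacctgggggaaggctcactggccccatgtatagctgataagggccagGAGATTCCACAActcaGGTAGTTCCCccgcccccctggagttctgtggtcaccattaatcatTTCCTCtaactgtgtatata
Csf2rb2, chr15:78136053-78136302 (minus): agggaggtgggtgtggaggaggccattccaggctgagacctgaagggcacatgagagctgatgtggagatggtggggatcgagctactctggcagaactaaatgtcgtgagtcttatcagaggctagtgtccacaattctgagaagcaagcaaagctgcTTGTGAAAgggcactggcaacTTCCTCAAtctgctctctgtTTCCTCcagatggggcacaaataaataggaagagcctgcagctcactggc

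In Csf1 all capitals were NF-kB matches, and those at -155 to -146 and -154 to -145, counted from the start, overlap on opposite strands. In Csf2 the CK-1 match at -82 to -75 overlapped a C/EBP match at -78 to -71, between NF-kB matches at -210 to -201 and -66 to -57, and a PU.1 match stood at -20 to -15. The Csf2rb2 stretch held C/EBP and PU.1 matches, which overlapped at -70, and no NF-kB match. Over 21858 promoter windows of this length the NF-kB pattern was present in 49.1%, C/EBP in 35.4%, PU.1 in 23.2%, AP-1 in 6.03% and CK-1 in 0.746%. Of the 5 members searched, which also included Csf2ra and Csf3r, NF-kB and C/EBP each matched 4, PU.1 matched 3, CK-1 matched Csf2 and AP-1 matched 0. A match describes these letters and is not evidence of binding.

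Csf1r, the M-CSF receptor, lies on the plus strand at chr18:61265226-61291803 (mm9), overlapped by Hmgxb3 on the other strand. Its level was 138, 170, 166, 138 and 195 CPM in control replicates 1 to 5 and 225, 82.1, 294, 356 and 391 CPM in ox-LDL replicates 1 to 5. Of the ox-LDL libraries 4 lay above every control, and replicate 2 lay below all of them. Control libraries averaged 161 ± 24.2 CPM and ox-LDL libraries 270 ± 122 CPM (mean ± SD, n = 5 per group), with a log2 fold change of 0.74 (SE 0.34, 95% interval -0.01 to 1.49), adjusted p 0.134 by edgeR. Without ox-LDL replicate 2 the log2 fold change was 0.93 with an edgeR adjusted p of 0.00264, past the threshold, in a fit where 13.5% of genes were called higher.

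Csf2ra, the GM-CSF-specific alpha chain, is at chr19:61300305-61304321 on the minus strand (mm9). Its level was 90.6, 133, 138, 107 and 93.6 CPM in control replicates 1 to 5 and 133, 92.0, 167, 250 and 152 CPM in ox-LDL replicates 1 to 5. The groups overlapped, with ox-LDL replicate 2 near the lowest control. The log2 fold change was 0.50 (SE 0.26, 95% interval -0.07 to 1.06), adjusted p 0.183 by edgeR, and it did not pass the threshold in any of the alternatives tried.

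Csf2rb, the common beta chain, is at chr15:78156420-78184277 on the plus strand (mm9). Its level was 91.9, 143, 159, 132 and 233 CPM in control replicates 1 to 5 and 259, 267, 627, 712 and 984 CPM in ox-LDL replicates 1 to 5. The lowest ox-LDL library lay just above control replicate 5, the highest control. The mean rose from 152 ± 51.8 to 570 ± 310 CPM (SD, n = 5 each), with a log2 fold change of 1.91 (SE 0.41, 95% interval 1.03 to 2.79) and an edgeR adjusted p of 0.00456. The call was lost in 10 of 25 alternatives, 7 of which left out 1 library (control 1, 2, 3 or 4, or ox-LDL 3, 4 or 5). Adjusted p then reached 0.0160 at most, with log2 fold changes of 1.60 to 2.11 over all libraries left out in turn.

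Csf2rb2, the beta chain that serves the IL-3 receptor in mice, is at chr15:78112947-78136052 on the minus strand (mm9), 20367 bases from Csf2rb. Its level was 63.6, 92.4, 91.3, 101 and 161 CPM in control replicates 1 to 5 and 144, 152, 313, 402 and 328 CPM in ox-LDL replicates 1 to 5. Only control replicate 5 overlapped the ox-LDL libraries, lying above replicates 1 and 2. Control libraries averaged 102 ± 35.9 CPM and ox-LDL libraries 268 ± 114 CPM (mean ± SD, n = 5 per group), and the log2 fold change was 1.39 (SE 0.34, 95% interval 0.65 to 2.14). The edgeR adjusted p was 0.0104, just short of the threshold, and it passed in 10 of 25 alternatives, among them those without control replicate 5, ox-LDL replicate 1 or ox-LDL replicate 2.

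The paralogs share much of their sequence. Their coding sequences were 95.2% identical over 2631 aligned bases. Over the full transcripts the longest shared run was 242 bases, and 6.56% of the 100-base windows of Csf2rb also occurred in Csf2rb2. The summed count of the pair was a whole number in every library although the single counts were not whole in 9 of 10 libraries, so reads were split between the paralogs and each level is uncertain by that division. Counted as 1 gene, the pair had a log2 fold change of 1.72 with an edgeR adjusted p of 0.00628. Csf2rb2 made up 40.3, 39.1, 35.9, 43.6 and 40.3% of the pair's FPKM (fragments scaled by gene length and library size) in control replicates 1 to 5 and 35.5, 35.9, 32.4, 34.7 and 24.9% in ox-LDL replicates 1 to 5. The lowest share was in ox-LDL replicate 5, the library with the highest Csf2rb in CPM. In FPKM its Csf2rb (181) was just below that of ox-LDL replicate 4 (185). The mean share was 39.9 ± 2.77% in control and 32.7 ± 4.56% in ox-LDL (SD, n = 5 each), a difference of -7.18 percentage points (two-sided exact permutation p = 0.0159).

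**Figure D2:**
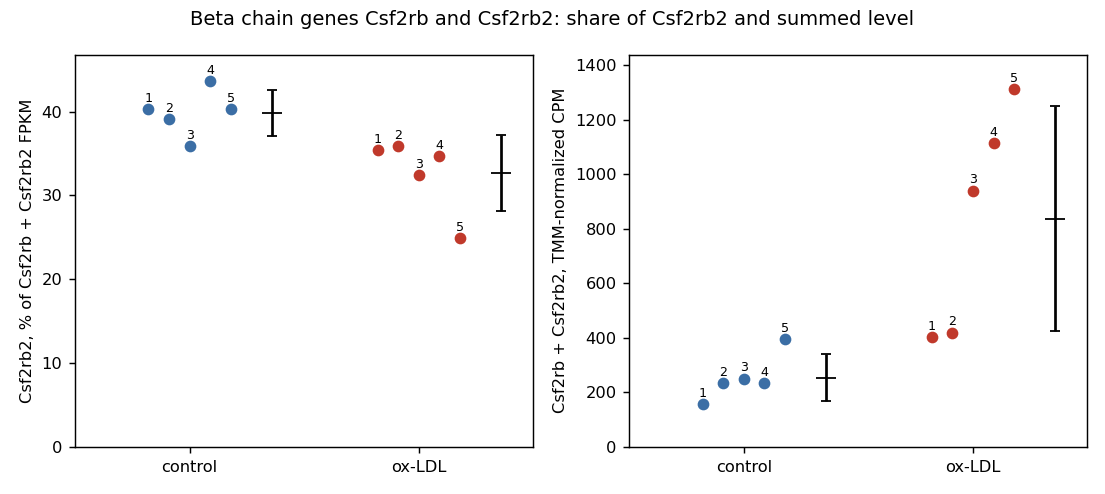
The share of Csf2rb2 in the pair's FPKM in percent (left) and the summed TMM CPM of the pair (right) in each control (blue) and ox-LDL (red) library, numbered by replicate, with mean and SD of 5 in black. The shares run from 35.9 to 43.6% in control and from 24.9 to 35.9% in ox-LDL libraries.

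Csf3r, the G-CSF receptor, is at chr4:125701794-125722219 on the plus strand (mm9). Its level was 39.9, 47.5, 36.5, 58.4 and 87.8 CPM in control replicates 1 to 5 and 46.0, 37.2, 31.7, 43.9 and 166 CPM in ox-LDL replicates 1 to 5. Replicate 5 was the highest library of both groups, and the other ox-LDL libraries lay within or below the control range. The log2 fold change was 0.27 (SE 0.45, 95% interval -0.72 to 1.25), adjusted p 0.708 by edgeR, and without ox-LDL replicate 5 it was -0.45 with an edgeR adjusted p of 0.244. Csf3r is also a neutrophil gene. The neutrophil marker sum was 19.7 to 38.3 CPM among control libraries and 20.6 to 156 CPM after ox-LDL. The neutrophil markers differed in replicate 5. Retnlg was 1.78 CPM in control replicate 5 and 1.61 CPM in ox-LDL replicate 5 but at most 0.103 CPM elsewhere. S100a9 and Cd177 were also highest in these libraries, and Camp in ox-LDL replicate 5, all below 1 CPM. Mmp8 was 16.9 and 7.94 CPM in control and ox-LDL replicate 5 but reached 31.5 CPM elsewhere. For S100a8 these values were 11.2, 63.7 and 152 CPM. Ltf, Cxcr2, Ngp, Mpo and Elane were also highest elsewhere. Of 11 matched neutrophil markers, 7 were below 1 CPM in every library, while S100a8, which activated macrophages also express, was called higher (log2 fold change 2.76, edgeR adjusted p 0.00310). Their part in the Csf3r values was not tested.

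**Figure D3:**
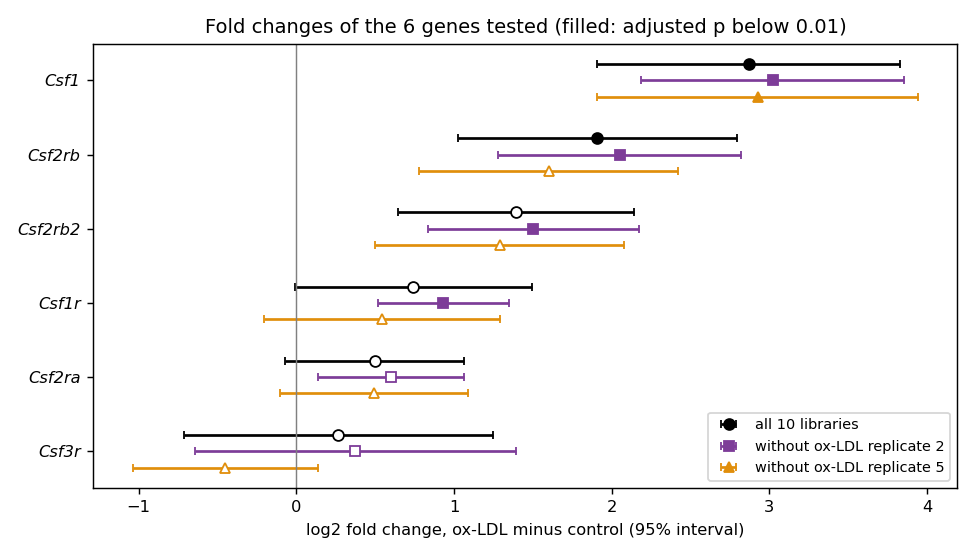
Log2 fold changes of ox-LDL over control for the 6 genes that passed the low-count filter, with 95% intervals, for all 10 libraries (circles) and without ox-LDL replicate 2 (squares) or 5 (triangles); filled symbols passed the threshold. With all libraries Csf1 at 2.87 and Csf2rb at 1.91 were called, Csf2rb2 at 1.39 fell just short, and the intervals of Csf1r, Csf2ra and Csf3r include 0.

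Compared per length, as FPKM, the receptor chains were far above the ligands in both groups. In control libraries the order of mean levels was Csf2ra (70.6), Csf1r (49.3), Csf2rb (37.2), Csf2rb2 (24.5), Csf3r (18.8), Csf1 (0.614), Csf3 (0.024) and Csf2, listed at 0. In ox-LDL libraries Csf2rb came first at 125 FPKM, before Csf2ra at 91.5, Csf1r at 75.8, Csf2rb2 at 57.9, Csf3r at 19.5, Csf1 at 4.20, Csf3 at 2.97 and Csf2 at 0.680. In control cells Csf2ra lay above Csf1r in 4 of 5 libraries. In ox-LDL cells Csf2rb lay above Csf2ra, Csf2ra above Csf1r, Csf1r above Csf2rb2 and Csf1 above Csf3 in 4 of 5 libraries each. Csf3 lay above Csf2 in 3 of 5 libraries of either group. The order of those neighbours therefore did not hold in every library.

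The other genes of these pathways were counted in lists by role. The counts stand beside 9.40% called higher and 5.35% called lower over all genes tested. Of the related ligands and receptors, 4 were tested and 0 were called by edgeR, with a median log2 fold change of 0.11. At an unadjusted p under 0.05 there was 1, Sdc1, and DESeq2 and limma-voom called 0. They included Il3ra, the IL-3 receptor alpha chain (-0.11, edgeR adjusted p 0.723), and Sdc1, a co-receptor candidate for the alternative M-CSF receptor ligand Il34 (1.02, edgeR adjusted p 0.0695). Il34 itself had at most 10 counts in a library and Il5 at most 2.

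Among 19 genes of receptor-proximal signalling, 2 were called higher and 1 lower, with a median of 0.25. These counts were close to the shares over all genes tested (9.40% higher and 5.35% lower). Jak2, the kinase bound to the common beta chain, rose by 1.64 (log2, edgeR adjusted p 1.1e-04), from 20.2 to 29.4 CPM in control to 54.7 to 103 CPM in ox-LDL libraries. Stat3, the main factor downstream of the G-CSF receptor, rose by 1.85. The tyrosine kinase gene Fes fell (log2 fold change -1.40). Stat5a (0.73) and Stat5b (0.62), the factors that GM-CSF receptors activate, did not pass, with edgeR adjusted p of 0.172 and 0.0694.

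Among 11 negative regulators of cytokine receptors, 4 were called higher and 1 lower, with a median of 0.18. The higher genes were the SOCS-box inhibitors Cish, Socs1, Socs2 and Socs3. Cish, a target of STAT5, had at most 3 counts in each control library and reached 3.57 to 9.14 CPM in ox-LDL libraries, at least 38.1-fold higher than the floor of 3 counts per library. Socs3 rose by 5.58 (log2), Socs1 by 5.12 and Socs2 by 3.15. Without ox-LDL replicate 5 the values were 4.58 for Socs3 and 4.24 for Socs1, and without control replicate 5 they were 6.19 and 5.73. The adaptor gene Dok2 fell by 2.37 on the log2 scale, and Ptpn6, the SHP-1 phosphatase, was at 0.00 (edgeR adjusted p 0.992).

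Among 9 tested transcription factors that act on the receptor genes, 3 were called higher and 0 lower by edgeR, with a median of 0.70, and 0 were lower at an unadjusted p under 0.05 or by DESeq2. Irf8 rose by 3.24 (log2), Cebpb by 2.19 and Ets2 by 2.03, whereas Spi1, which encodes PU.1, had a log2 fold change of -0.31 (edgeR adjusted p 0.344). Of 4 tested genes for shedding of ligands or receptors, Rhbdf2 rose by 1.83 and Adam10 fell by 0.95 on the log2 scale, and Adam10 passed in only 13 of 24 alternatives. Adam17, which sheds the M-CSF receptor, did not pass (0.59, edgeR adjusted p 0.0817).

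Of 11 tested genes known to be induced by GM-CSF, 3 were called higher and 1 lower, with a median of 0.04. Ccl22 rose by 4.23 (log2), Il1rn by 2.43 and Pim1 by 2.02, and Pparg, which GM-CSF raises in alveolar macrophages, fell by 2.45. Ccl22 was 2.78 without ox-LDL replicate 5, and it lost its call in 6 of 24 alternatives, among them those without control replicate 1 or 4. Of 12 genes associated with M-CSF-dependent macrophages, Csf1r among them, 1 was called higher and 4 lower, with a median of -0.59. Ccr2 fell by 4.41, Mrc1 by 2.24 and Maf by 1.64 on the log2 scale. Without ox-LDL replicate 5 the value for Ccr2 was -5.15. Cd163 had at most 2 counts in any ox-LDL library and was at least 4.39-fold lower than in control against the floor of 3 counts. Adgre1, a macrophage surface marker gene, rose by 2.07 (log2). Over the 7 lists 22 of 70 tested genes were called, 14 higher and 8 lower, against 9.40% higher and 5.35% lower over all genes tested. Across the alternatives the median of the GM-CSF list lay between -0.16 and 0.22 and that of the negative regulators between -0.19 and 0.38, and that of the related ligands and receptors between -0.30 and 0.34, so none of the 3 had a stable sign. The median of the M-CSF-associated genes ranged from -1.18 to -0.15.

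**Figure D4:**
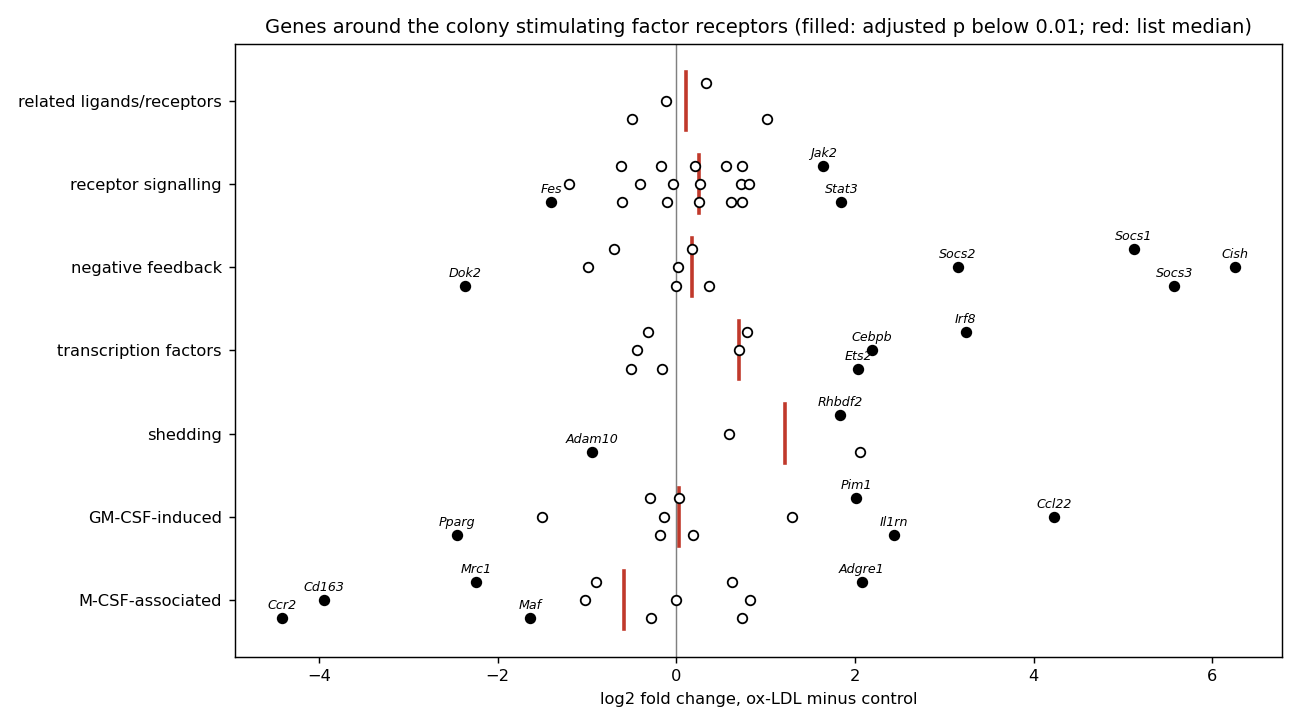
Log2 fold changes of the genes tested in each list, with 1 point per gene, called genes filled and named, and a red line at the median of each list; height within a list only separates the points. The medians run from -0.59 for the M-CSF-associated genes to 1.21 for the shedding genes, and the negative regulators split into 4 SOCS genes above 3 and the rest near or below 0.

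Genes whose levels deviated most like each member's within the groups were taken from 7638 genes with a mean of at least 10 CPM, by Pearson r over the 10 libraries. The highest for Csf1 was Cyp1b1 (0.96) and for Csf1r Fbxw8 (0.99). For Csf2ra it was Chp1 (0.96), for Csf2rb Ugcg (0.98), for Csf2rb2 Dot1l (0.97) and for Csf3r Abi3 (0.97). These points share library, depth and the length trend of the libraries that stand apart, and they are a description.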

How the data were processed

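RNA from 10 libraries was sequenced on the BGISEQ-500 platform. Per the labels and the study's methods, alignment by the authors was to mm9 (HISAT2 2.0.5), followed by sorting in SAMtools 1.4 and assembly by StringTie 1.3.3.13. The authors deposited estimated counts per gene (13.6% of values were not whole; how and with which strand setting they were counted is not given in the sources used here) and, per library, values without a stated unit. Those behaved as FPKM, since count over value gave a constant length per gene (median variation 1.77% over 10158 rows), and are treated as deposited FPKM. Of 39488 rows, 9788 circular RNAs were left out.

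Estimated counts were rounded, filtered with filterByExpr by group, scaled by TMM and tested with edgeR 4.0.16 (glmQLFit, robust, glmQLFTest) in R 4.3.3, without covariates, adjusted by Benjamini-Hochberg. Alternatives used DESeq2 1.42.0 and limma 3.58.1 on log2(FPKM + 1) and log2(FPKM + 0.1), which understates changes of low genes, other filters and scalings, and each library left out. Single values used exact permutation over 252 arrangements. Floors cover counting error only, and p-values cover the spread between these samples. The pipeline was tested on simulated data. Symbols came from RefSeq; positions from GENCODE for mm9. All 8 members are named, called genes of each list (up to 4, largest first), and the genes most like each member. A listed gene is not reported here and was left out of its list's counts. The members and lists were chosen with earlier results of these data known.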

Additional observations from a re-analysis of the deposited data

Results flagged for a closer look

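In each group of 5 libraries a value was examined when its gap to the nearest other library was more than 0.71 of the group's range. Of 75 groups 8 met this, and chance alone gives about 1 in 20 groups, here 3.75. Among the members, Csf3r in ox-LDL replicate 5 was 166 CPM, against 46.0 CPM in the next library.

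Control replicate 5 stood above the other control libraries for Socs3 (8.43 CPM, next 3.04), Socs1 (1.48 CPM, next 0.567) and Irf8 (141 CPM, next 96.2). Ox-LDL replicate 5 stood above the other ox-LDL libraries for Socs3 (506 CPM, next 116) and Ccl22 (91.6 CPM, next 16.7). Cd163 in control replicate 4 was 1.39 CPM against 0.652 CPM in the next. The macrophage marker sum of ox-LDL replicate 2 was 59080 CPM, against 30713 CPM in the next.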

How the results depend on the processing

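Csf1 kept its call in every alternative tried. The cause of the changes below was not tested. Genes called, 1866 in all, numbered 3009 with DESeq2, 1243 with limma on log2(FPKM + 0.1), 2878 with the gene length trend removed and 3326 without ox-LDL replicate 2 and control replicate 5, a pair chosen after seeing the data. Leaving out 1 library gave 1262 to 3257, the highest without ox-LDL replicate 2. Higher calls were 63.7% of all, but 704 against 583 lower with library size alone, 956 against 808 with upper-quartile scaling, and 555 against 750 and 543 against 700 with limma on FPKM plus 1 and plus 0.1; the median of all genes was 0.10, and -0.09 with library size alone. Members called higher were 1 of 6 with library size alone, where 704 of all 12654 genes were higher. They were 1 of 6 with limma on either log2 FPKM scale (555 and 543 of 10470 genes). Without the filter they were 5 of 8 (4.14% of 29267 genes), and without both libraries 4 of 6 (1843 of 12858 genes). With 1 left out they were 1 to 4 of 6 or 7, with the shares for the fits at 1 and 4 given above. An added absolute log2 fold change above 2 left 1 of 6, and the share of all genes at that cutoff was not computed.

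Csf1r reached 1.03 without both libraries and 0.54 to 0.93 with 1 left out. Csf2rb lost its call with library size alone (1.72) and with limma on log2 FPKM (1.57 and 1.59), ranged over 1.60 to 2.11 with 1 left out and was 2.28 without both libraries. Csf2rb2 passed with DESeq2 (1.38), without the filter (1.32), with rows of a paired symbol (1.39), with the length trend removed (1.21), with the replicate block (1.34), without both libraries (1.74) and as a summed pair (1.72), with 1.20 to 1.61 when 1 was left out. Csf3r turned negative with limma on log2 FPKM (-0.12 and -0.13) and without ox-LDL replicate 5 (-0.45; 1 left out, -0.45 to 0.51), and was 0.64 without both libraries. The mean difference of Csf3 was 2.96 to 4.61 CPM with 1 left out. Its exact permutation p was 0.0556 when any control library was left out, with unequal groups that still did not overlap.

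Replicate numbers are shared by the groups, and no label says that same-numbered libraries are pairs. Their deviations correlated between -0.42 and 0.51. The gene length trends of the libraries enter these values, so they cannot settle whether animals were shared. The libraries were not treated as pairs. With the replicate block 1434 genes were called, Csf2rb2 at 1.34 crossed the threshold (edgeR adjusted p 0.00723), members called went from 2 to 3, and Ccl22 at 3.19 and Adam10 at -0.997 lost their calls. Depth limited Csf2 and Csf3, whose control counts were at most 1.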
